A study of Mus musculus with 6 samples.

Results

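DNA replication and S phase genes were followed across 3 dose groups of mouse pancreatic islets, the small organs of hormone-secreting cells that include the insulin-producing beta cells. The group held 45 gene symbols, among them the origin licensing factors, the helicase, the polymerases, the sliding clamp and the enzymes of nucleotide supply. A gene was represented by the probe set annotated to it alone that had the highest mean log2(signal + 1) over all arrays. Such a probe set was found for 44 of the 45 symbols, Chaf1a being not analysed here, and 43 of these 44 genes were bright enough to be tested, of 13193 genes tested in all. Tk1, a thymidine kinase, lay below the brightness filter with signals between 7 and 31.

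The 6 Affymetrix arrays carried islet RNA of wild-type male OF-1 mice at postnatal day 30. Mothers of the vehicle group had received vehicle on gestation days 9 to 16. Mothers of the BPA10 and BPA100 groups had received bisphenol-A, a building block of plastics that can act on estrogen receptors, at 10 and 100 µg/kg/day over the same days. Each group had 2 arrays. Vehicle replicate 1 pooled 5 mice and BPA10 replicate 2 pooled 2 mice, while each other array carried RNA of 1 mouse. The series asks how this exposure in the womb bears on beta cell growth in young male offspring. Litters are not given in the labels, so p-values measure only the spread between these arrays.

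A cell copies its genome once per division. The origin recognition complex marks the start sites, Cdc6 and Cdt1 load the ring-shaped MCM2-7 helicase onto them before S phase, and Cdc45 and the GINS complex turn the loaded ring into a moving helicase. Polymerases, clamp and ligase then build the new strands. Many of these genes are driven by E2F transcription factors at the entry into S phase, whereas mitotic genes are often controlled later in the cycle through a cell cycle homology region, the CHR element. In young rodents beta cell number grows mainly by division of existing beta cells.

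Words of the E2F and CHR type were looked for in the promoters. The letters searched on both strands were TTTCCCGC and TTTGGCGC for E2F, and TTTGAA and TTCGAA for CHR. No E2F word overlaps a CHR word in its letters. The window ran from 250 bases before to 50 bases after the RefSeq transcript start (build GRCm38.p6). An E2F word stood in 12 of 45 promoters of the 38 replication genes with an entry (26.7%), against 1.56% of all 32851 promoters. A CHR word stood in 7 of these 45 promoters (15.6%), against 19.2% of all. In a mitosis list of 30 genes, 26 had an entry, and 22 of their 28 promoters held a CHR word (78.6%) while none held an E2F word. A match is a description of the letters and not a binding site.

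The next 6 stretches end 1 base before the transcript start and are shown because they differ in which words they hold. Mcm6, Cdc6 and Pola1 hold E2F words, Orc6 holds neither kind, and Cdk1 and Cdc20 of the mitosis list hold CHR words. Capitals mark the words found, and each sequence is written 5′ to 3′ on the gene's strand.
Mcm6, chr1:128359706-128359855, minus strand: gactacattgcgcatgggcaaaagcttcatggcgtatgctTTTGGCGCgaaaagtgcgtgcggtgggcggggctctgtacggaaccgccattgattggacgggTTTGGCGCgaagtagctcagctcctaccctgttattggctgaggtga
Cdc6, chr11:98908001-98908150, plus strand: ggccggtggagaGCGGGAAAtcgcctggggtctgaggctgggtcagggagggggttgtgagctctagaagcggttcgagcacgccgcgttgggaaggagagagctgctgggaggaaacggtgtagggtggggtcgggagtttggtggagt
Pola1, chrX:93632156-93632305, minus strand: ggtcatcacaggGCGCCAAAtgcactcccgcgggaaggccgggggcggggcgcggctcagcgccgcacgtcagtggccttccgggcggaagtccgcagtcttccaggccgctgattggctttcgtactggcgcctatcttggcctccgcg
Orc6, chr8:85299482-85299631, plus strand: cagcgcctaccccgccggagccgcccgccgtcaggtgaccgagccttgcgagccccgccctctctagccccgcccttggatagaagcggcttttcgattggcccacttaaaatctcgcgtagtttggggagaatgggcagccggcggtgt
Cdk1, chr10:69352913-69353062, minus strand: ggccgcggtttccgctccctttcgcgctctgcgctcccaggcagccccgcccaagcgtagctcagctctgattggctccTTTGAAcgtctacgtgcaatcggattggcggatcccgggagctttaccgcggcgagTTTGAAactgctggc
Cdc20, chr4:118437344-118437493, minus strand: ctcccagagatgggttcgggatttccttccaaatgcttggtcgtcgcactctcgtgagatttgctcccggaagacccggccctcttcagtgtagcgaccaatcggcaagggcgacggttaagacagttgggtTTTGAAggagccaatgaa
The Mcm6 words begin 110 and 47 bases before the start, and those of Cdk1 begin 71 and 15 bases before it.

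The arrays were of even quality on the deposited scale. Median signals lay between 33 and 40, and correlations between arrays of a group were 0.968 in each group. Over all pairs the correlations ran from 0.945 to 0.975. The highest was between arrays of different groups, so arrays of a group were not the most alike. Markers of the labelled tissue were present: the 13 tested islet endocrine genes summed to signals between 69001 and 88717 on every array. The arrays also held RNA of the enzyme-secreting acinar cells that surround islets. The 15 tested acinar markers summed to 91688 and 54614 on the vehicle arrays, 129139 and 117635 on the BPA10 arrays, and 120119 and 73791 on the BPA100 arrays.

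No replication gene passed the adjusted test in any comparison, and most of the 43 lay close to the vehicle level in both dose groups. The difference from vehicle on the log2 scale was within 0.5 of 0 for 40 genes in BPA10 and for 41 in BPA100. With limma and p-values adjusted by Benjamini-Hochberg over every tested probe set, 0 of 43 genes passed an adjusted p of 0.05 in BPA10 against vehicle, BPA100 against vehicle or BPA100 against BPA10, as did 0% of all genes tested in each. The smallest adjusted limma p of a replication gene was 0.592, 0.721 and 0.964 in the 3 comparisons. Before adjustment a single gene, Orc6, had a limma p under 0.05, in both comparisons with vehicle and in the direction of lower values.

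In BPA10 against vehicle, 33 replication genes were higher (76.7%, beside 53.1% of all genes) and 10 lower. The median difference was 0.13 on the log2 scale, beside 0.02 over all genes tested. Of the 43 replication genes, 0 were higher and 1 was lower at an unadjusted limma p under 0.05, where 3.71% of all genes were called higher and 2.3% lower. Both BPA10 arrays lay above both vehicle arrays for 9 genes (20.9%) and below both for 6 (14.0%), and over all genes these shares were 19.3% and 16.2%. Both shares of the replication genes are thus close to those of all genes. For the replication genes as a whole, by their brightest probe sets, the excess of higher values rested mainly on BPA10 replicate 2, the pool of 2 mice. Their median difference was 0.0019 without that array. It was -0.032 between the single vehicle array and the single BPA10 array that carried RNA of 1 mouse. Grouped by role, the genes did not all follow this. Polymerase and primase genes had medians relative to vehicle of 0.30 on BPA10 replicate 1 and 0.20 on replicate 2. Helicase, helicase activation, clamp and RPA genes had the higher median on replicate 2. In the remaining roles the median on replicate 2 was not the higher one. By dimmer tested probe sets, both BPA10 arrays lay above both vehicle arrays for Mcm2 and Mcm7, and not for Mcm6.

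In BPA100 against vehicle, 24 genes were higher (55.8%, beside 49.8% of all genes) and 19 lower. The median difference was 0.00, as over all genes. After each array was centred on its median, 29 were higher and 14 lower. Centring moved the median difference to 0.041 for the replication genes and to 0.036 for all genes. At an unadjusted limma p under 0.05, 0 genes were higher and 1 was lower, beside 2.35% and 1.78% of all genes. Both BPA100 arrays lay above both vehicle arrays for 6 genes (14.0%) and below both for 3 (6.98%), against 16.3% and 15.3% of all genes.

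In BPA100 against BPA10, which shares its BPA10 arrays with the first comparison, 10 genes were higher (23.3%, beside 47.0% of all genes) and 33 lower. The median difference was -0.13, beside -0.02 over all genes. At an unadjusted limma p under 0.05, 0 were called in either direction, beside 1.66% of all genes higher and 2.65% lower. Groups did not overlap for 3 genes that were higher (6.98%) and 11 that were lower (25.6%), where 13.4% and 17% of all genes behaved so. Without BPA10 replicate 2 the median difference was -0.016. A moderated F test over the 3 groups gave an unadjusted p under 0.05 for Orc6 alone among the 43, and for 4.43% of all genes.

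The precision of these differences varied by gene. Moderated standard errors (SE) of a difference between 2 groups of 2 arrays ran from 0.14 to 0.52, with a median of 0.20. The 95% limma interval lay wholly within 1 log2 unit of 0, that is within a doubling or halving, for 33 of 43 genes in BPA10 and 37 of 43 in BPA100. These are 76.7% and 86.0% of the replication genes, beside 10153 and 10436 of all 13193 genes. In BPA10 the intervals of Orc1, Orc6, Mcm2, Mcm10, Gins2, Gins3, Prim2, Pole, Tyms and Chaf1b reached beyond that bound. For these 10 genes the interval included differences of that size.

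**Figure D1:**
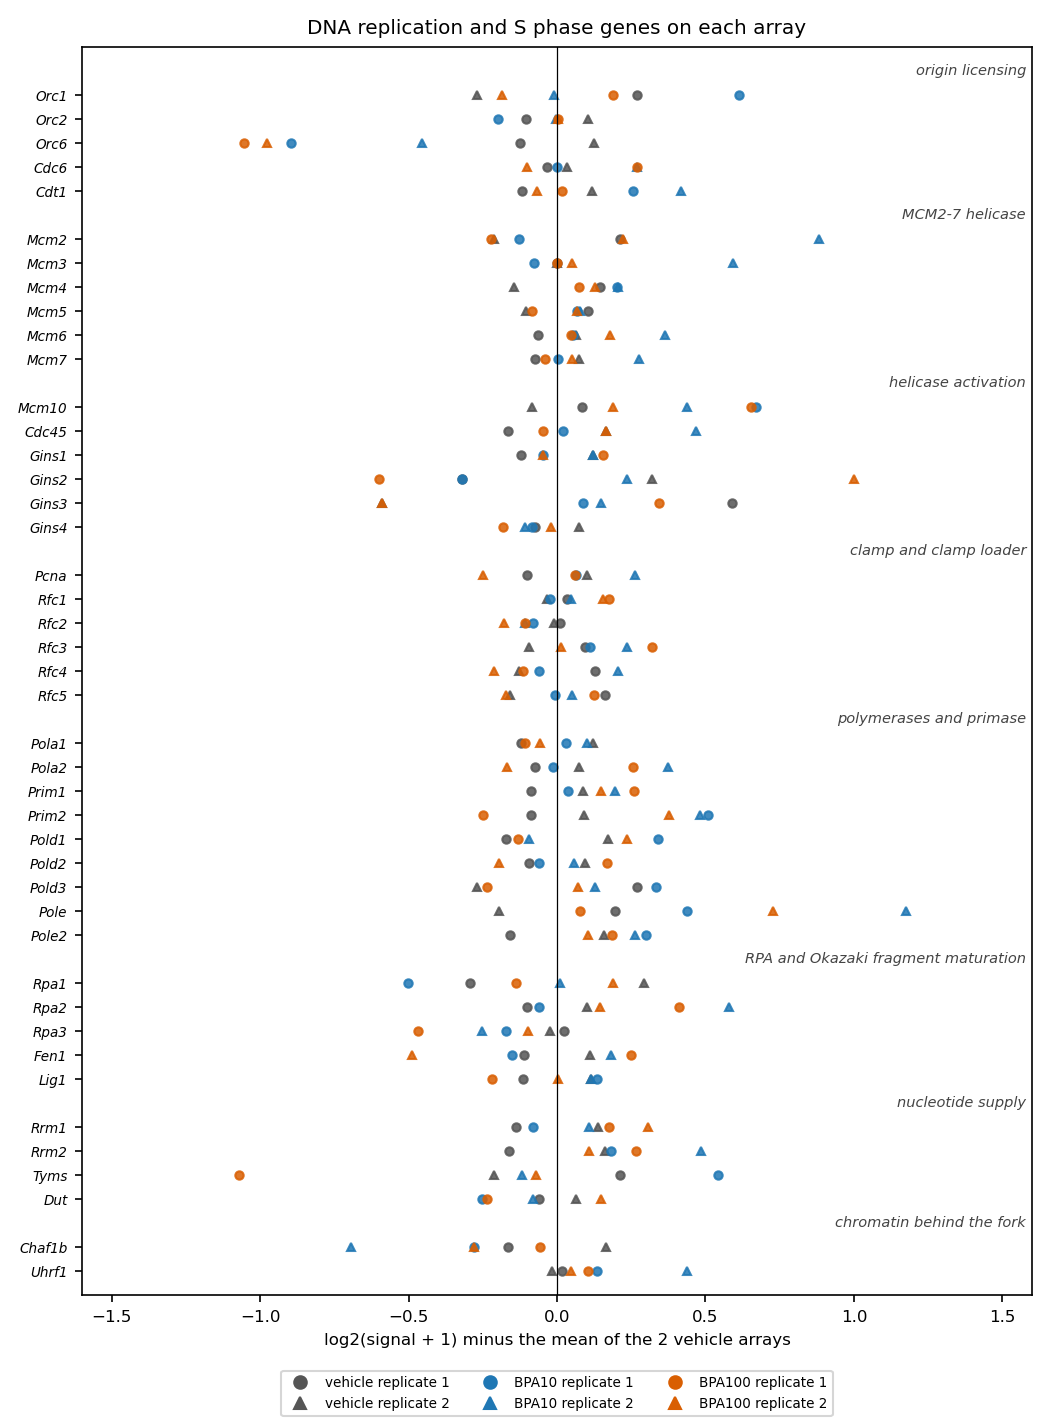
Each row is 1 of the 43 replication and S phase genes, grouped by role, and each point is 1 array: log2(signal + 1) minus the mean of the 2 vehicle arrays of that gene. Colours stand for dose groups, circles for replicate 1 and triangles for replicate 2. Orc6 has all 4 exposed arrays to the left of both vehicle arrays, and blue triangles (BPA10 replicate 2) are the rightmost point for 15 genes.

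Origin licensing held the gene that stood furthest from vehicle. Orc6 encodes the smallest subunit of the origin recognition complex and also has a known role in cytokinesis. Its signal was 279 and 332 on the vehicle arrays, 163 and 222 on the BPA10 arrays, and 146 and 154 on the BPA100 arrays. All 4 exposed arrays were below both vehicle arrays, and both BPA100 arrays were below both BPA10 arrays. The BPA10 level was 0.626 of the vehicle level, a log2 difference of -0.68 ± 0.20 (SE, n = 2 arrays a group, limma adjusted p = 0.592). The BPA100 level was 0.494 of vehicle, a log2 difference of -1.02 ± 0.20 (limma adjusted p = 0.721). BPA100 and BPA10 differed by -0.34 ± 0.20 (limma adjusted p = 0.964), which did not pass. Over all 3 groups the limma F test gave an adjusted p = 0.596. Orc6 had 1 probe set, so no second one could be set beside it.

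The unadjusted limma p of Orc6 in BPA10 was above 0.05 when vehicle replicate 2 or BPA10 replicate 1 was left out. In BPA100 it stayed under 0.05 in every alternative run. With 1 array left out or another setting changed, the log2 difference ranged from -1.02 to -0.45 in BPA10 and from -1.14 to -0.89 in BPA100.

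The other licensing genes lay nearer to vehicle. Cdt1, which loads the helicase, had signals of 201 and 237 in vehicle, 261 and 292 in BPA10, and 221 and 208 in BPA100. Both BPA10 arrays were above all other arrays, and the BPA100 arrays lay among the vehicle values. The log2 difference was 0.34 ± 0.16 in BPA10 (limma adjusted p = 0.729) and -0.36 ± 0.16 for BPA100 against BPA10 (limma adjusted p = 0.964), neither of which passed. A second tested probe set of Cdt1 differed by 0.53 in BPA10 and by -0.44 between the doses. Cdc6, the partner of Cdt1 in loading, ranged from 40 to 52 over the 6 arrays without separation of the groups. Orc2 ranged from 144 to 178. Orc1, which binds ATP in the origin complex, read 73 and 50 in vehicle, 93 and 60 in BPA10, and 69 and 53 in BPA100, so the arrays of every group overlapped.

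All 6 MCM2-7 genes, the subunits of the replicative helicase, had a higher mean in BPA10 than in vehicle by their brightest probe sets, with a median log2 difference of 0.21 and a range of 0.07 to 0.38. None had a limma p under 0.05. Mcm2 read 537 and 400 in vehicle, 424 and 856 in BPA10, and 397 and 541 in BPA100. Of its BPA10 arrays 1 lay between the vehicle arrays and 1 above both. On this probe set its log2 difference of 0.38 ± 0.31 in BPA10 thus rested on a single array. A dimmer tested probe set of Mcm2 read 64 and 87 in vehicle and 103 and 107 in BPA10. There both BPA10 arrays lay above both vehicle arrays, at a log2 difference of 0.49 that did not pass. Mcm3 had 1 high BPA10 array on its brightest set, with 113 on each vehicle array, 107 and 171 in BPA10, and 113 and 117 in BPA100.

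Mcm4 was the MCM2-7 gene with the smallest F-test p. It read 471 and 385 in vehicle, 490 and 491 in BPA10, and 448 and 465 in BPA100. Both BPA10 arrays were above both vehicle arrays, by less than the 2 vehicle arrays differed from each other. The log2 difference was 0.20 ± 0.15 in BPA10 (limma adjusted p = 0.825). It was 0.058 without vehicle replicate 2 and 0.35 without vehicle replicate 1. A second tested probe set of Mcm4 differed by -0.11, and the mean of both sets by 0.047. Mcm6 ranged from 274 to 369 and Mcm7 from 420 to 536 on their brightest sets, each with its highest value on BPA10 replicate 2. Dimmer tested sets of Mcm7 differed by 0.25 to 0.39 in BPA10, with both BPA10 arrays above both vehicle arrays on each. A dimmer tested set of Mcm6 differed by 0.03. Mcm5 ranged from 126 to 146.

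Per array, the median of the 6 helicase genes relative to their vehicle means was 0.05 and -0.05 in vehicle, 0.03 and 0.32 in BPA10, and -0.02 and 0.10 in BPA100, in log2 units. BPA10 replicate 2 thus had the highest median of the 6 arrays. In BPA100 4 helicase genes were higher and 2 lower, with a median of 0.01, and the lower 2, Mcm2 and Mcm5, turned to higher after quantile normalization or centring of the arrays. Mcm3 had 2 dimmer tested probe sets besides its brightest, and 1 of them differed by 0.64 in BPA10 with an unadjusted limma p under 0.05, while the brightest differed by 0.26.

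**Figure D2:**
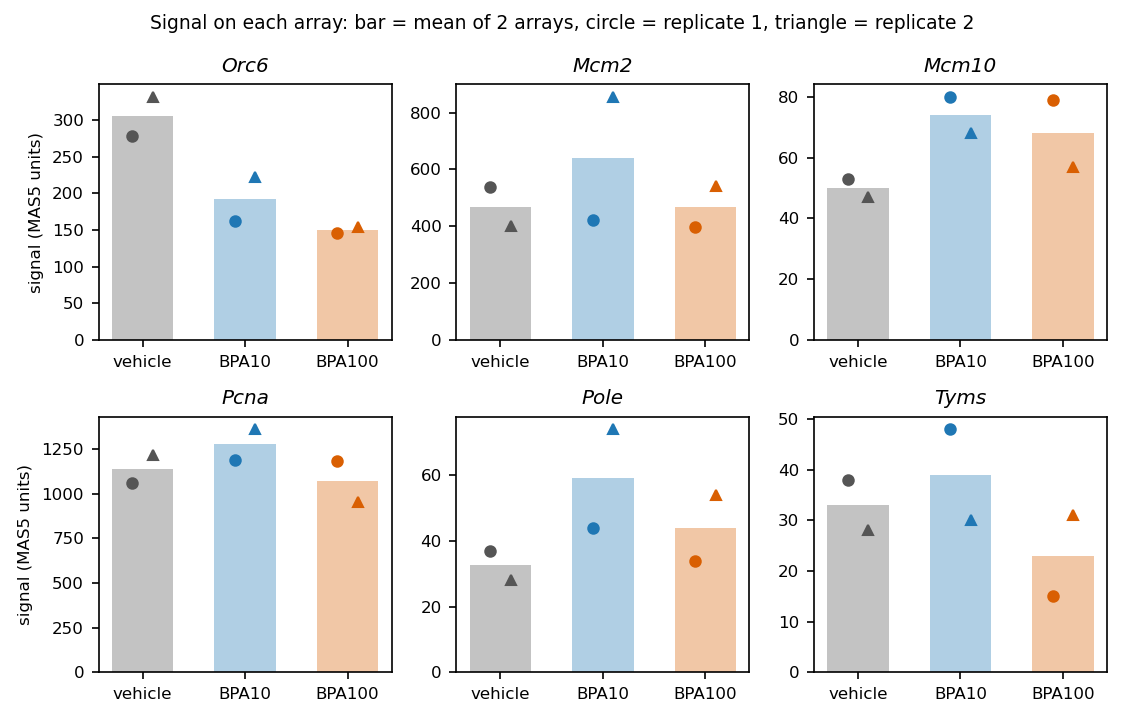
Signal on the deposited linear scale for Orc6, Mcm2, Mcm10, Pcna, Pole and Tyms, with a bar for the mean of the 2 arrays of a group and a point for each array (circle replicate 1, triangle replicate 2). Orc6 falls into separate groups, Mcm2 and Pole carry 1 high BPA10 array (856 and 74), and Pcna overlaps between vehicle and both doses.

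Among the genes that activate the helicase, Mcm10 stood furthest from vehicle. Mcm10 helps the loaded ring to open and start unwinding. Its signal was 53 and 47 in vehicle, 80 and 68 in BPA10, and 79 and 57 in BPA100, so all 4 exposed arrays were above both vehicle arrays. The log2 difference was 0.55 ± 0.26 in BPA10 (limma adjusted p = 0.726) and 0.42 ± 0.26 in BPA100 (limma adjusted p = 1). A second tested probe set differed by 0.27 and 0.29. Neither difference of Mcm10 passed.

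Cdc45, part of the active helicase, read 57 and 72 in vehicle, 65 and 89 in BPA10, and 62 and 72 in BPA100, with overlap between all groups. The 4 GINS subunits differed little in mean and much in spread. Gins1 ranged from 37 to 45 and Gins4 from 241 to 288. Gins2 read 27 and 84 on the 2 BPA100 arrays, and Gins3 read 101 and 44 on the 2 vehicle arrays. These 2 genes therefore varied more within a group than any group means differed.

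By their brightest probe sets, the sliding clamp and its loader differed little between the groups. Pcna, the clamp that holds polymerases on DNA and a common marker of dividing cells, read 1059 and 1219 in vehicle, 1189 and 1363 in BPA10, and 1186 and 955 in BPA100. Arrays of vehicle and either dose overlapped, and the BPA100 arrays lay below both BPA10 arrays. The log2 difference was 0.16 ± 0.15 in BPA10, with a 95% interval of -0.19 to 0.51, and -0.09 ± 0.15 in BPA100, with an interval of -0.45 to 0.26. BPA100 differed from BPA10 by -0.26 ± 0.15 (limma adjusted p = 0.964), and by -0.10 without BPA100 replicate 2, -0.41 without BPA100 replicate 1 and -0.16 without BPA10 replicate 2.

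The 5 clamp loader genes Rfc1 to Rfc5 had log2 differences between -0.16 and 0.17 in both comparisons with vehicle by their brightest probe sets. Dimmer tested sets spread wider in BPA10, with -0.84 for 1 set of Rfc1 and 0.35 and 0.51 for 2 sets of Rfc2. A set of Rfc2 differed by -0.60 between the doses, with an unadjusted limma p under 0.05. Rfc2 read 294 and 290 in vehicle, 276 and 271 in BPA10, and 271 and 258 in BPA100, on its brightest set, a small separation with log2 differences of -0.09 and -0.14 whose BPA10 sign was opposite on the dimmer sets. Rfc1, the large subunit, read 202 and 193 in vehicle and 223 and 220 in BPA100. Rfc3 ranged from 77 to 103, Rfc4 from 97 to 130 and Rfc5 from 131 to 165.

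Polymerase and primase genes had a median log2 difference of 0.18 in BPA10, with 8 of 9 higher, and of 0.05 in BPA100, with 6 of 9 higher. Pold2, lower by less than 0.01 in BPA10 and by 0.01 in BPA100, turned to higher after quantile normalization or centring. None of the 9 had a limma p under 0.05. Pole, the catalytic subunit of the leading-strand polymerase, read 37 and 28 in vehicle, 44 and 74 in BPA10, and 34 and 54 in BPA100. Both BPA10 arrays were above both vehicle arrays, and the BPA100 arrays overlapped with vehicle. The log2 difference was 0.81 ± 0.37 in BPA10 (limma adjusted p = 0.716), the largest upward difference of the 43 genes, and 0.44 without BPA10 replicate 2. Its accessory subunit Pole2 read 85 and 106 in vehicle, 117 and 114 in BPA10, and 108 and 102 in BPA100.

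Prim2, the large subunit of the primase that lays down RNA primers, read 75 and 85 in vehicle, 114 and 112 in BPA10, and 67 and 104 in BPA100. The BPA10 arrays agreed closely and lay above all others, while the BPA100 arrays stood on either side of vehicle. The log2 difference in BPA10 was 0.50 ± 0.25 (limma adjusted p = 0.741). A second tested probe set of Prim2 differed by 0.07. Prim1, the catalytic primase subunit, read 180 and 203 in vehicle, 196 and 219 in BPA10, and 229 and 212 in BPA100, so the BPA100 arrays alone separated from vehicle. Among the others, Pola1 ranged from 107 to 127, Pola2 from 43 to 63, Pold1 from 69 to 99, Pold2 from 232 to 299 and Pold3 from 122 to 186, with either dose overlapping vehicle in each.

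Genes of single-strand binding and Okazaki fragment maturation showed no shared direction. The 3 RPA subunits coat unwound single strands. Rpa3, the smallest, read 304 and 294 in vehicle, 265 and 251 in BPA10, and 216 and 279 in BPA100, so every exposed array was below both vehicle arrays. Its log2 difference was -0.21 ± 0.17 in BPA10 and -0.28 ± 0.17 in BPA100 (limma adjusted p = 1). The BPA100 value was -0.10 without BPA100 replicate 1 and -0.47 without BPA100 replicate 2. Rpa2 read 107 and 123 in vehicle, 110 and 172 in BPA10, and 153 and 127 in BPA100, so both BPA100 arrays lay above vehicle. Rpa1 ranged from 1162 to 2017 and its lowest and highest values came from BPA10 and vehicle. Fen1, the nuclease that trims fragment ends, read 298 and 348 in vehicle and 383 and 229 in BPA100. Lig1, the ligase that joins the fragments, ranged from 107 to 137.

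Nucleotide supply genes also differed in direction. Rrm2, the regulated subunit of ribonucleotide reductase, read 178 and 223 in vehicle, 226 and 279 in BPA10, and 240 and 215 in BPA100. Its BPA10 arrays lay above both vehicle arrays, at a log2 difference of 0.33 ± 0.19 that did not pass. Rrm1, the large subunit, read 151 and 183 in vehicle and 188 and 206 in BPA100. Tyms, which makes thymidylate, was dim and scattered, with 38 and 28 in vehicle, 48 and 30 in BPA10, and 15 and 31 in BPA100. Its log2 difference of BPA100 from BPA10 was -0.78 ± 0.44 (limma adjusted p = 0.964), with 1 low array. It was -0.28 without that array, BPA100 replicate 1, -1.28 without BPA100 replicate 2 and -0.45 without BPA10 replicate 1. Dut, which removes dUTP from the nucleotide pool, read 410 and 447 in vehicle, 359 and 405 in BPA10, and 363 and 474 in BPA100.

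Behind the fork, Chaf1b, a subunit of the histone-depositing factor CAF-1, read 38 and 48 in vehicle, 35 and 26 in BPA10, and 41 and 35 in BPA100. The log2 difference in BPA10 was -0.49 ± 0.32 (limma adjusted p = 0.804), and -0.28 without BPA10 replicate 2 or -0.32 without vehicle replicate 2. A second tested probe set of Chaf1b differed by 0.13, in the opposite direction. Uhrf1, which brings the maintenance DNA methyltransferase to newly copied DNA, read 46 and 45 in vehicle, 50 and 62 in BPA10, and 49 and 47 in BPA100. Every exposed array of Uhrf1 was at least 1 signal unit above vehicle, and the log2 differences were 0.29 and 0.08, each with an SE of 0.26.

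**Figure D3:**
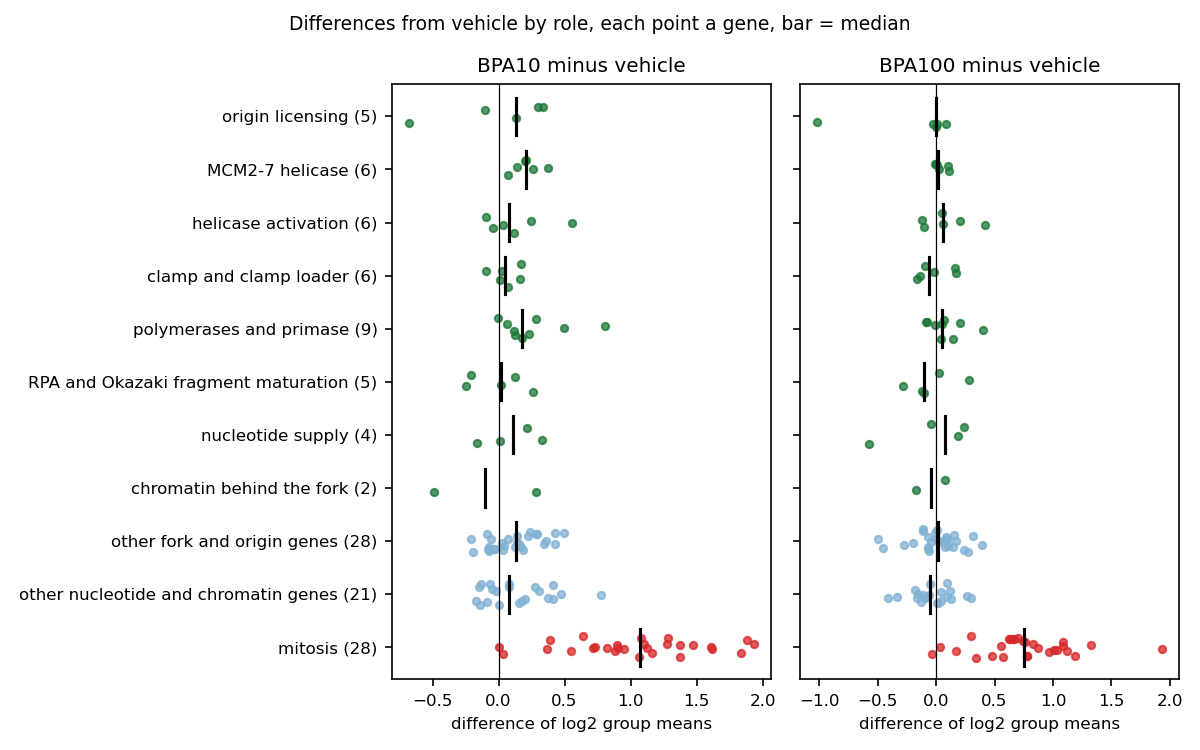
Each point is a gene's difference from vehicle in log2 group means, in BPA10 (left) and BPA100 (right), with a bar at the median of each list and the number of tested genes in brackets. Replication roles (green) and the other fork, origin, nucleotide and chromatin genes (blue) have medians between -0.11 and 0.21, and the mitosis list (red) has medians of 1.07 and 0.75.

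Genes with more than 1 probe set gave a check on the choice of the brightest. Of 29 genes with at least 2 tested probe sets, all sets of a gene had 1 sign in 16 genes in BPA10 (15 higher, 1 lower) and in 17 genes in BPA100 (15 higher, 2 lower). In the rest of the 29 the sets differed in sign. Agreement in sign was not counted over all genes. Over all 81 tested probe sets of the replication genes the median log2 difference was 0.13 in BPA10 and 0.06 in BPA100, and 2 and 1 of these probe sets had an unadjusted limma p under 0.05. By brightest sets, 3.71% of all genes were higher and 2.3% lower at that level in BPA10, and 2.35% and 1.78% in BPA100. The probe sets used for Mcm5, Pold3, Fen1 and Rrm2 carry a suffix (_x_at) that marks probes shared with other transcripts, so their values are less certain. Those used for Mcm2, Mcm3, Mcm7 and Gins2 carry the suffix _s_at, which marks probes that match several transcripts, and call for similar care.

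Further genes of the same pathways also had medians near vehicle, though some shares without overlap differed from those of all genes. Of 32 other fork and origin genes, such as the origin subunits Orc3 to Orc5, the kinase Cdc7 and the checkpoint factor Clspn, 28 were tested. In BPA10 19 were higher and 9 lower (median 0.13), and in BPA100 15 were higher and 12 lower (median 0.02), with 0 genes at a limma p under 0.05 in either direction. Both BPA10 arrays lay above both vehicle arrays for 9 of the 28 (32.1%) and below both for 2 (7.14%). Over all genes these shares were 19.3% and 16.2%. Of 23 other genes of nucleotide supply and new chromatin, 21 were tested. In BPA10 13 were higher and 8 lower (median 0.08), and in BPA100 10 were higher and 11 lower (median -0.05). Both BPA10 arrays lay above both vehicle arrays for 6 (28.6%) and below both for 1 (4.76%). In BPA100 against BPA10, groups did not overlap for 0 higher and 11 lower genes (52.4%). Over all genes 13.4% and 17% behaved so, and of the 28 fork and origin genes 4 and 6 (14.3% and 21.4%). These shares were not tested.

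In these lists 3 genes had an unadjusted limma p under 0.05 in a comparison, and none passed adjustment. All belong to the 21 nucleotide and chromatin genes, 1 (4.76%) in each comparison. At that level, 3.71% of all genes were higher in BPA10 and 1.78% lower in BPA100. In BPA100 against BPA10, 2.65% of all genes were lower. Nasp, a histone chaperone, read 149 and 151 in vehicle, 198 and 201 in BPA10, and 168 and 141 in BPA100, a log2 difference of 0.41 ± 0.17 in BPA10 (limma adjusted p = 0.688). Dctpp1, which breaks down dCTP, read 196 and 198 in vehicle, 199 and 162 in BPA10, and 143 and 152 in BPA100, a log2 difference of -0.42 ± 0.17 in BPA100 (limma adjusted p = 1). Umps, of pyrimidine synthesis, read 387 and 343 in BPA10 and 289 and 232 in BPA100, a difference of -0.49 ± 0.17 between the doses (limma adjusted p = 0.964). In each of the 3, which were picked by p, the arrays of the groups named did not overlap. Over all genes such shares were 19.3% higher in BPA10, 15.3% lower in BPA100 and 17% lower in BPA100 against BPA10. Nasp was higher in BPA10, and Dctpp1 and Umps were lower in BPA100. With the mean of its probe sets the Umps difference was -0.13.

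Mitotic genes on the same arrays had larger differences than the replication genes. All 28 tested genes of the mitosis list were higher in BPA10, with a median log2 difference of 1.07, and 27 of 28 were higher in BPA100, with a median of 0.75. At an unadjusted limma p under 0.05, 23 (82.1%) were higher in BPA10 and 20 (71.4%) in BPA100, and 0 passed adjustment. Over all genes 3.71% and 2.35% were higher at that level. The list was chosen with earlier results of these data known. Relative to their vehicle means, the medians of this list per array were 0.11 and -0.11 in vehicle, 1.04 and 1.08 in BPA10, and 0.67 and 0.85 in BPA100. For the 43 replication genes the same medians were -0.07 and 0.07, then 0.00 and 0.18, then 0.02 and 0.05. Exposed arrays thus lay above both vehicle arrays for the mitosis list. For the replication genes they lay between the 2 vehicle values, except for BPA10 replicate 2. The vehicle values mirror each other because both arrays make the vehicle mean, so they are no full measure of spread between vehicle arrays. The difference between the lists itself was not tested.

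Values of 4 genes show the mitosis list array by array. Mki67, the Ki-67 proliferation antigen, read 128 and 136 in vehicle, 235 and 279 in BPA10, and 213 and 241 in BPA100, at log2 differences of 0.95 ± 0.17 (limma adjusted p = 0.315) and 0.78 ± 0.17 (limma adjusted p = 0.921). Cdk1, the kinase of mitotic entry, whose promoter with 2 CHR words is shown above, read 120 and 102, then 191 and 219, then 175 and 167. Top2a, a topoisomerase that separates the copied strands, read 176 and 175, then 225 and 295, then 210 and 236. For these 3 genes both dose groups lay above vehicle with no overlap. Ccna2, the cyclin active in S phase and mitosis, read 129 and 92 in vehicle, 170 and 117 in BPA10, and 165 and 173 in BPA100, and its BPA10 arrays overlapped with vehicle. The intervals of the list reached beyond 1 log2 unit in 23 of 28 genes in each comparison with vehicle, against 10 and 6 of the 43 replication genes.

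**Figure D4:**
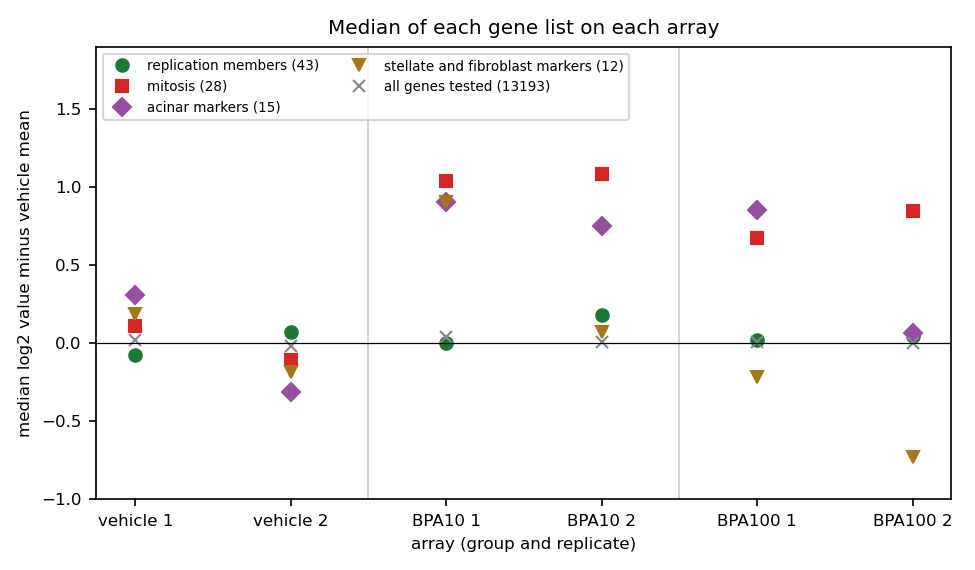
Median over the genes of a list of log2(signal + 1) minus the vehicle mean, on each of the 6 arrays, for the 43 replication genes, 28 mitosis genes, 15 acinar markers, 12 stellate and fibroblast markers and all 13193 genes tested. Replication genes stay between -0.07 and 0.18 while the mitosis list is at 0.67 or above on all 4 exposed arrays, and acinar and stellate markers vary between arrays of a group.

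Markers of other cell types differed between arrays, also within a group. In bulk RNA, fewer cells of a type and less RNA per cell cannot be told apart. Relative to their vehicle means, acinar markers had medians of 0.31 and -0.31 in vehicle, 0.91 and 0.75 in BPA10, and 0.86 and 0.07 in BPA100. All 15 were higher in BPA10 than in vehicle, 12 of them (80%) at an unadjusted limma p under 0.05. In BPA100 14 were higher, 2 of them (13.3%) at that level. Over all genes 3.71% and 2.35% were higher at that level. Markers of stellate cells and fibroblasts were highest on BPA10 replicate 1, with medians of 0.90 and 0.07 in BPA10 and -0.21 and -0.73 in BPA100. The 6 tested duct markers followed the same order, with 0.70 and -0.04 in BPA10 and -0.19 and -0.64 in BPA100. On BPA10 replicate 1, where all 3 lists were high, the median of the replication genes was 0.00.

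Islet endocrine markers had medians of 0.33 and 0.28 in BPA10 and 0.31 and 0.02 in BPA100. Of the 13 tested, 12 were higher in BPA10, 6 of them (46.2%) at an unadjusted limma p under 0.05. In BPA100 11 were higher, 1 of them (7.69%) at that level. Endothelial markers had medians between 0.01 and 0.03 on all exposed arrays, and those of macrophage markers ranged from -0.49 to 0.42 over all 6. Of 10 lymphocyte markers 4 were tested, with a highest median of 0.92 on BPA10 replicate 1, and 5 lay below the filter. On BPA10 replicate 2, where the replication genes had their highest median, the endocrine markers had a median of 0.28 and a mean of 0.29, the highest mean of the 6 arrays, and the acinar markers a median of 0.75. The part of cell composition in the values of single replication genes was not tested.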

How the data were processed

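Each array was deposited as linear intensities of its probe sets, which the authors computed in MAS5, per the submitters' processing notes; its version is not given in the sources used here. On this scale the mean of each array without the outer 2% of values was 150. RNA (150 ng) was amplified over 2 cycles, per the labels' protocols. Of 45101 probe sets, 64 controls were left out. The platform annotation gave 1 gene for 34945, several for 932 and none for 9160.

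Values were taken as log2(signal + 1), which understates differences of dim probe sets. Probe sets at or above the 40th percentile of the mean (a signal of 23.3) were tested, 27022 in all. limma 3.58.1 in R 4.3.3 (lmFit, eBayes with an intensity trend) took in all 6 arrays and a mean for each of 3 groups, leaving 3 residual and 5.4 prior degrees of freedom. Tests were 2-sided and adjusted by Benjamini-Hochberg over every tested probe set. Differences are of log2 group means ± moderated SE. The number of arrays limits precision: the median SE was 0.24, and permutation of 2 arrays against 2 cannot give p below 0.333. The fit was tested on simulated data, with the outcome not given here.

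Genes described with tests were, per role, the one with the smallest F-test p, and any with an unadjusted p under 0.05. Cdt1 and Prim2 lay outside this rule and were added after their values were seen, as were examples given by signal. Members and lists were chosen with earlier results of these data known. Alternatives were quantile normalization, centring, a pseudocount of 16, other filters, no trend, only the groups compared, probe set means, arrays of 1 mouse, a replicate block and each array left out.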

Additional observations from a re-analysis of the deposited data

How the results depend on the processing

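The count of 0 replication genes at an adjusted limma p of 0.05 held in all comparisons and alternatives run. At an unadjusted p under 0.05 the BPA10 count of 1 (Orc6) became 2 after centring or without the intensity trend (Mcm10 added), 2 with only the groups compared (Prim2 added), 2 with arrays of 1 mouse (Rpa1 added), which sets 1 array against 1 with the spread taken from the BPA100 arrays, and 3 with probe set means (Mcm2 and Mcm3 added). With 1 array left out it ranged from 0 (without vehicle replicate 2) to 4 (without BPA10 replicate 1, when Orc6 was not among them). In BPA100 it ranged from 1 to 2, with 2 without BPA100 replicate 2 (Rpa3 added). Between the doses it was 1 with no filter (Cdt1) and ranged from 0 to 3, with 3 without BPA10 replicate 1. The F-test count ranged from 1 to 2. The median difference in BPA10 was -0.032 with arrays of 1 mouse and ranged from 0.0019 (without BPA10 replicate 2) to 0.18. Between the doses it was -0.016 with arrays of 1 mouse and ranged from -0.18 to -0.016. The mitosis count in BPA100, added after the data were seen, ranged from 10 (without BPA100 replicate 2; 12 without vehicle replicate 2) to 20 with 1 array left out, and was 21 after quantile normalization and 22 after centring. The causes were not tested.

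Deviations of same-numbered arrays from their group means were weakly and positively correlated, at 0.19, 0.20 and 0.08. With the replicate block, 3 genes had an unadjusted p under 0.05 in BPA10 (Orc6, Mcm10, Pole), 1 in BPA100 and 1 between the doses (Cdt1). For 15 genes 20 differences were recomputed, and all 317 values kept their direction. Those of Cdt1 and Prim2, of Mcm10 in BPA100 and of Orc6 between the doses were not recomputed. Adjusted limma p of Orc6 ranged from 0.214 to 1 in BPA10 and from 0.302 to 1 in BPA100. Gins2, Tyms, Gins3 and Pole had the widest errors of the 43 genes.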
